A study of Mus musculus with 12 samples.

Results

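The comparison described here set mouse hippocampal neurons cultured for 3 and 6 days in vitro (DIV) against the same kind of culture at 0, 1, 12 and 15 DIV, to describe the genes that peak or dip while neurites grow. It used 4 of the 12 arrays of the series, called the middle arrays, against the other 8, of which 4 were early (0 and 1 DIV) and 4 were late (12 and 15 DIV). All 20358 genes measured entered the fit, and none was chosen by its values. Each of the 6 times had 1 array of replicate 1 and 1 of replicate 2, which the paper describes as independent replicas. That all arrays of a replicate number came from 1 culture is not stated. The 2 replicates are called the 2 cultures below.

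Every culture came from the hippocampi of RjOrl:SWISS mouse embryos at e17.5-18.5, with no genetic change. The cells were plated in serum on poly-D-lysine and then kept in Neurobasal medium with B27, a serum-free supplement for neurons. The array labelled 1 DIV of replicate 2 has 20 h in its title. Cytosine arabinoside, which kills dividing cells, was given to the cultures at 3 DIV. The labels do not say whether the 3 DIV RNA was taken before or after it, and its effect and that of time cannot be told apart at 6, 12 and 15 DIV, since every culture that old had received it. The number of embryos pooled and the plating density used for the arrays are not given in the sources used here. RNA was measured on Affymetrix Mouse Gene 1.0 ST arrays, and the values are log2 values per gene, so that a difference of 1 is a factor of 2. The number of arrays, 2 at each time, limits the precision.

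Dissociated hippocampal neurons start as round cells without processes. Within the first days they put out short neurites, of which one becomes the axon, and the others later grow and branch as dendrites before spines and mature synapses form. Growth needs actin remodelling at the growth cone, new microtubules along the shaft and added membrane, and is steered by guidance receptors. Glial cells, microglia, progenitors and vessel cells that come along in the dissection live on, divide or die in the same dish, so a level in such RNA reflects the makeup of the culture as well as the neurons. Fewer cells of a type and less RNA per cell cannot be told apart in these arrays.

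The cultures carried the markers of neurons at all times. The neuronal tubulin Tubb3 averaged 12.69 in the middle, 12.74 in the early and 12.49 in the late arrays, and the dendritic protein Map2 averaged 11.64, 11.45 and 11.51 in the same order of stages. The 2 replicates of a time correlated at 0.944 (12 DIV) to 0.979 (1 DIV) across genes, which are not independent replicates. Array medians lay between 7.35 and 7.57. Across all genes the middle difference had a median of -0.00, so that changes are given as they stand. The median astrocyte marker differed by 0.63 from the early and by -1.07 from the late arrays, and the summed astrocyte level (mean of 18 genes) spanned 7.90 to 9.78 in the middle arrays, against 7.94 to 8.23 in the early and 9.40 to 10.38 in the late arrays.

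In the contrast of the middle arrays with the mean of the other 8, 24 genes were higher (0.118% of the genes tested) and 38 were lower (0.187%) in limma, with p-values adjusted across the 20358 genes (Benjamini-Hochberg) and called under 0.05. At an unadjusted p under 0.05 there were 1300 higher and 1057 lower. After quantile normalization of the gene values the same contrast called 62 higher and 64 lower, with centred arrays 22 and 32, and with the mean of probesets 70 and 69. The balance between the directions thus differed between settings. Without the replicate as a block the contrast called 1 and 4. The calls of this contrast were lost to 0 in both directions when any 1 of 8 arrays was left out: either array of 0, 1 or 3 DIV, replicate 2 of 6 DIV or replicate 1 of 15 DIV. At an unadjusted p under 0.05 these 8 fits held 572 to 2044 higher and 745 to 1553 lower genes. Without replicate 2 of 12 DIV, the array of the pair with the lowest correlation, it called 288 higher and 249 lower.

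A gene passes this contrast when it is high on average at 3 and 6 DIV, and that does not need a peak. Each gene was therefore also compared with each side. Against the early arrays 1617 genes were higher (7.94%) and 583 lower (2.86%), and against the late arrays 1051 were higher (5.16%) and 1515 lower (7.44%). A peak was called where both differences were above 0 and past the threshold, which 25 genes met (0.123%), and a dip where both were below 0, which 11 met (0.054%). Of the 62 genes past the middle contrast only 13 were of these 2 kinds, 6 peaks and 7 dips. The other 49 had passed the threshold on one side alone, or on both sides in opposite directions. A side that did not pass need not be level. Trim67 was above the early arrays by 0.45, just short of the threshold (adjusted p = 0.055, limma), whereas Sst differed from the late arrays by only 0.10.

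**Figure D1:**
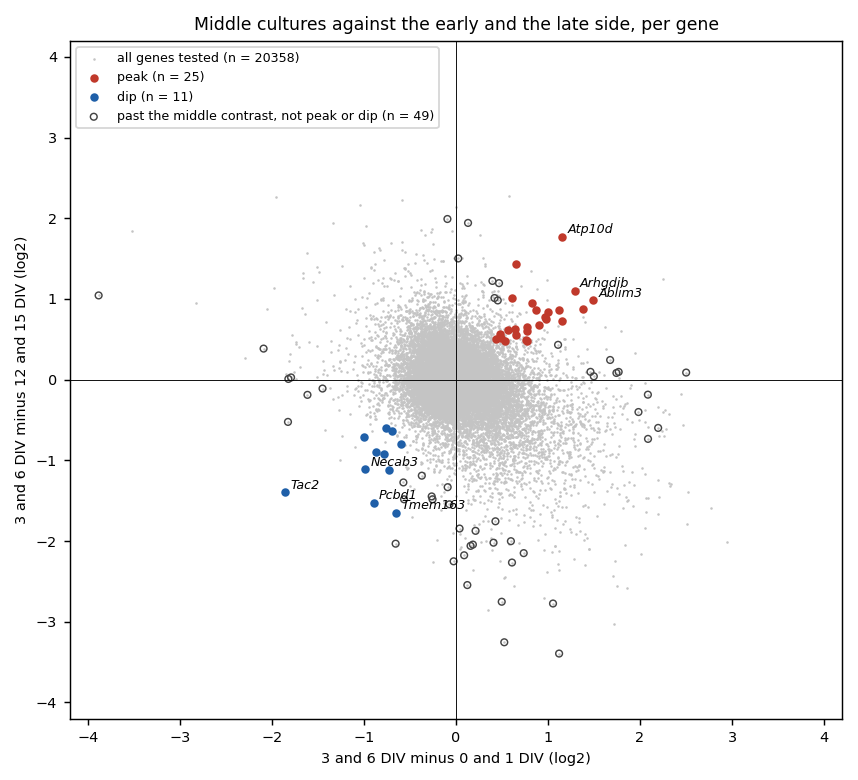
Difference of the middle arrays (3 and 6 DIV) from the early arrays (horizontal axis, log2) and from the late arrays (vertical axis, log2) for 20358 genes, 1 point each. The 25 peaks (red) lie in the upper right and the 11 dips (blue) in the lower left quadrant, while the 49 other genes past the middle contrast (open circles) lie mostly along the axes, and labels name 3 peaks and 4 dips.

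Among all genes, 3988 (19.6%) had a middle mean above both the early and the late mean, and 4953 (24.3%) had one below both, so most such genes did not pass the test. All 4 middle arrays lay above all 8 others for 42 genes (0.206%), of which 12 were peaks and 4 passed the middle contrast. All 4 lay below all 8 others for 22 genes (0.108%), of which 4 were dips and 3 passed the contrast. The 25 peaks were higher in the middle in both cultures taken alone, and the 11 dips were lower in both, as a gene that passes a fit with 2 cultures tends to be. The largest gene outside the peaks whose arrays did not overlap was Chodl, a lectin-like membrane protein, chosen here after its values were seen, with 10.11 and 9.46 (3 DIV) and 9.99 and 10.18 (6 DIV) in the middle arrays, against 8.29 and 7.07 (0 DIV), 8.25 and 7.14 (1 DIV), 8.93 and 9.41 (12 DIV) and 7.33 and 9.09 (15 DIV). Its middle difference of 1.75 missed the threshold (adjusted p = 0.067, limma), and so did its difference from the late arrays.

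The peaks had middle differences of 0.47 to 1.46 on the log2 scale. By culture time, 17 were highest at 3 DIV and 8 at 6 DIV. The largest was Atp10d, a lipid flippase of the P4-ATPase family that moves glycosphingolipid across the membrane, with 8.59 and 8.44 (3 DIV) and 7.88 and 8.42 (6 DIV) in the middle arrays, against 6.90 and 7.09 (0 DIV), 7.43 and 7.32 (1 DIV), 5.89 and 7.31 (12 DIV) and 6.06 and 6.99 (15 DIV). Its 4 middle arrays were all above its 8 others, and replicate 1 was lower than replicate 2 in both late pairs. The difference was 1.15 against the early arrays (SE 0.24) and 1.77 against the late arrays (SE 0.24), with a larger adjusted p of 0.012 (limma). Ablim3, an actin-binding LIM protein, had 9.42 and 9.34 (3 DIV) and 9.47 and 9.53 (6 DIV) in the middle arrays, against 6.96 and 7.36 (0 DIV), 8.62 and 8.85 (1 DIV), 7.97 and 9.0 (12 DIV) and 7.96 and 8.89 (15 DIV). The 4 middle arrays of Ablim3 were close to each other and above all others, and the 0 DIV arrays were the lowest. Its difference was 1.49 against the early arrays (SE 0.19) and 0.99 against the late arrays (SE 0.19), with a larger adjusted p of 0.0082. Rgs6, a regulator that shortens signalling by G proteins of the Gi and Go class, had 8.70 and 8.18 (3 DIV) and 8.06 and 8.06 (6 DIV) in the middle arrays, against 7.02 and 6.99 (0 DIV), 7.11 and 7.29 (1 DIV), 7.17 and 7.81 (12 DIV) and 7.25 and 7.85 (15 DIV). Here too the groups did not overlap, and the early arrays stood closer together than the late ones. Its difference was 1.15 against the early arrays (SE 0.19) and 0.73 against the late arrays (SE 0.19), with a larger adjusted p of 0.029. These 3 genes passed the middle contrast as well (adjusted p = 0.029 for Atp10d, 0.029 for Ablim3 and 0.049 for Rgs6). Ablim3 was called a peak in all 12 fits that left out 1 array, Atp10d in 8 and Rgs6 in 7.

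The other 9 peaks whose arrays did not overlap did not pass the middle contrast, with adjusted p of 0.055 (Pop1) to 0.081 (Snx16), but passed against each side. Lypd6, a membrane-anchored protein of the Ly6 family that binds nicotinic receptors, had 9.23 and 9.32 (3 DIV) and 8.90 and 8.85 (6 DIV) in the middle arrays, against 8.12 and 8.39 (0 DIV), 7.95 and 7.94 (1 DIV), 8.82 and 8.22 (12 DIV) and 7.70 and 8.55 (15 DIV). It was lowest at 1 DIV, and its difference was 0.98 against the early arrays (SE 0.20) and 0.75 against the late arrays (SE 0.20). Pop1, a protein subunit of the RNA-cleaving enzymes RNase P and RNase MRP, had 7.96 and 7.69 (3 DIV) and 7.85 and 8.04 (6 DIV) in the middle arrays, against 7.09 and 6.71 (0 DIV), 7.15 and 7.0 (1 DIV), 6.87 and 7.45 (12 DIV) and 7.12 and 7.37 (15 DIV). Replicate 2 of 12 DIV was the nearest of the others, and the difference was 0.90 against the early arrays (SE 0.17) and 0.68 against the late arrays (SE 0.17). Rxfp3, the receptor of the neuropeptide relaxin-3, had 7.09 and 7.59 (3 DIV) and 7.11 and 7.24 (6 DIV) in the middle arrays, against 6.41 and 6.74 (0 DIV), 6.10 and 6.70 (1 DIV), 6.61 and 6.38 (12 DIV) and 6.71 and 6.70 (15 DIV). Its late arrays lay close together, and the difference was 0.77 against the early arrays (SE 0.16) and 0.66 against the late arrays (SE 0.16). Mapt, the microtubule-associated protein tau of axons, had 11.33 and 11.61 (3 DIV) and 11.52 and 11.43 (6 DIV) in the middle arrays, against 11.03 and 11.10 (0 DIV), 10.83 and 10.97 (1 DIV), 11.03 and 11.05 (12 DIV) and 10.72 and 11.03 (15 DIV). Its middle difference of 0.50 was the smallest of the 12, with 0.49 against the early arrays (SE 0.13) and 0.52 against the late arrays (SE 0.13). Larger adjusted p-values were 0.033 for Lypd6, 0.025 for Pop1, 0.022 for Rxfp3 and 0.034 for Mapt (limma). With 1 array left out Pop1 and Rxfp3 remained called in 6 of 12 fits each, and Lypd6 and Mapt in 3. Over 14 other settings, which changed the processing or left out a time, Pop1 was called in 10, Lypd6 in 8, Rxfp3 in 7 and Mapt in 5. Mapt was lost without the block (larger adjusted p = 0.073, limma) and with quantile normalization (0.074), centred arrays (0.072) or the mean of probesets (0.21).

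Tctex1d2, a light chain of the dynein that carries cargo back along cilia, had 8.55 and 8.42 (3 DIV) and 8.53 and 8.78 (6 DIV) in the middle arrays, against 7.44 and 7.69 (0 DIV), 7.90 and 8.17 (1 DIV), 7.44 and 8.21 (12 DIV) and 8.26 and 7.98 (15 DIV). Its late arrays were uneven, with 12 DIV replicate 1 as low as the lowest 0 DIV array. Epb41l4a, a band 4.1 protein that can tie the membrane to the cytoskeleton, had 9.61 and 9.15 (3 DIV) and 9.54 and 9.34 (6 DIV) in the middle arrays, against 8.37 and 8.59 (0 DIV), 9.12 and 8.99 (1 DIV), 9.12 and 8.62 (12 DIV) and 8.83 and 8.53 (15 DIV). The gap to 1 DIV was narrow, since the lowest middle array stood just above the highest early array. Rundc3b, which carries a RUN domain, had 10.10 and 9.67 (3 DIV) and 9.85 and 9.99 (6 DIV) in the middle arrays, against 8.78 and 8.61 (0 DIV), 9.65 and 9.53 (1 DIV), 9.46 and 9.55 (12 DIV) and 9.18 and 9.44 (15 DIV). Its 0 DIV arrays stood far below the rest. St6gal2, an enzyme that adds sialic acid to glycans, had 7.43 and 6.81 (3 DIV) and 6.97 and 6.53 (6 DIV) in the middle arrays, against 6.48 and 5.97 (0 DIV), 6.46 and 6.24 (1 DIV), 6.39 and 6.49 (12 DIV) and 6.38 and 6.30 (15 DIV), and replicate 1 was the higher array at both middle times. Snx16, a sorting nexin of endosomes, had 10.06 and 9.54 (3 DIV) and 9.72 and 9.78 (6 DIV) in the middle arrays, against 8.93 and 9.01 (0 DIV), 9.53 and 9.39 (1 DIV), 9.36 and 9.40 (12 DIV) and 8.77 and 9.09 (15 DIV), with 1 DIV next below the middle. Their differences from the early arrays ran from 0.56 (Snx16) to 0.77 (Tctex1d2) and from the late arrays from 0.50 (Rundc3b) to 0.63 (Epb41l4a). The larger adjusted p was between 0.019 (Epb41l4a) and 0.049 (Rundc3b). Each of the 5 was called in 2 to 4 of the 12 fits that left out 1 array. With all probesets of a gene the calls of Tctex1d2 and Rundc3b were lost (larger adjusted p = 0.065 and 0.11, limma).

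The remaining 13 peaks had middle arrays that overlapped the others, and are named here after their values were seen, to account for every peak, except Lyz2, which its list named. Arhgdib, a GDP-dissociation inhibitor abundant in blood cells, had 9.07 and 8.11 (3 DIV) and 7.96 and 8.27 (6 DIV) in the middle arrays, against 6.57 and 6.78 (0 DIV), 7.50 and 7.40 (1 DIV), 7.69 and 8.29 (12 DIV) and 6.61 and 6.42 (15 DIV). The overlap came from 12 DIV replicate 2, while the early and 15 DIV arrays stood below the middle ones. It passed the middle contrast (1.19, SE 0.19, adjusted p = 0.039) and was called a peak in all 12 fits that left out 1 array. Chn2, beta-chimaerin, which switches off Rac, had 10.43 and 10.70 (3 DIV) and 10.0 and 10.12 (6 DIV) in the middle arrays, against 9.15 and 9.42 (0 DIV), 10.09 and 10.14 (1 DIV), 9.19 and 9.74 (12 DIV) and 8.92 and 9.37 (15 DIV). Its 1 DIV arrays were as high as those of 6 DIV, so the peak reached back to 1 DIV, and the middle difference of 0.81 (SE 0.12) had an adjusted p of 0.029. Plekhg1, a guanine nucleotide exchange factor, had 7.35 to 8.54 in the middle arrays, against 6.66 to 7.42 in the early and 6.89 to 7.83 in the late arrays, and Cdc42ep2, an effector of Cdc42, had 8.53 to 9.06 in the middle arrays, against 8.27 to 8.50 in the early and 8.05 to 8.65 in the late arrays. Both stood above each side on average, by 0.96 against the early arrays (SE 0.18) and 0.77 against the late arrays (SE 0.18) for Plekhg1 and by 0.43 against the early arrays (SE 0.12) and 0.51 against the late arrays (SE 0.12) for Cdc42ep2.

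Lyz2, the lysozyme of macrophages and microglia, had 8.21 and 7.80 (3 DIV) and 6.66 and 6.69 (6 DIV) in the middle arrays, against 6.30 and 6.47 (0 DIV), 6.95 and 7.03 (1 DIV), 6.0 and 5.91 (12 DIV) and 5.94 and 5.75 (15 DIV). It was high at 3 DIV alone, since the 6 DIV arrays lay below those of 1 DIV, and it was the 1 peak in which 6 and 3 DIV differed (-1.33, adjusted p = 0.046, limma). Between these times 12 genes of all were higher at 6 DIV (0.0589%) and 10 lower (0.0491%). The middle difference of Lyz2 was 1.04 (SE 0.12, adjusted p = 0.02). Of the 24 measured microglia and macrophage markers 8 stood above both sides by their means, but only Lyz2 passed against early, 9 passed as higher than late (5.16% of all genes) and none was lower on either side. Their summed level (mean of 24 genes) spanned 6.62 to 7.32 in the middle arrays, against 6.80 to 7.04 in the early and 6.27 to 6.38 in the late arrays. Adgre1, the macrophage marker F4/80, averaged 7.60, 7.02 and 5.32 in the middle, early and late arrays, whereas Cx3cr1, a receptor of microglia, averaged 7.99, 8.73 and 7.07. The part of such cells in the levels of Lyz2 and Arhgdib was not tested.

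Peaks of the membrane and its surroundings followed. Tfrc, the transferrin receptor that brings in iron, had 9.92 and 9.83 (3 DIV) and 9.11 and 10.31 (6 DIV) in the middle arrays, against 7.48 and 7.66 (0 DIV), 9.28 and 9.25 (1 DIV), 8.41 and 9.65 (12 DIV) and 8.66 and 8.94 (15 DIV). It was low only at 0 DIV on the early side, and 12 DIV replicate 2 reached into the middle range. Myof, myoferlin, a protein of membrane repair and fusion, had 6.87 to 7.91 in the middle arrays, against 5.13 to 7.40 in the early and 6.11 to 7.19 in the late arrays. Its 1 DIV arrays stood within the middle range and its 0 DIV arrays, 5.13 and 5.34, stood far below. Has3, a hyaluronan synthase, had 7.46 to 8.28 in the middle arrays, against 6.58 to 7.48 in the early and 6.70 to 7.22 in the late arrays. Differences of Tfrc were 1.38 against the early arrays (SE 0.24) and 0.88 against the late arrays (SE 0.24), of Myof 1.12 against the early arrays (SE 0.23) and 0.87 against the late arrays (SE 0.23) and of Has3 0.83 against the early arrays (SE 0.19) and 0.95 against the late arrays (SE 0.19). Larger adjusted p-values were 0.035, 0.033 and 0.018 for Tfrc, Myof and Has3. With all probesets of a gene the middle difference was 0.44 for Myof and 0.33 for Has3, and both calls were lost (larger adjusted p = 0.15 and 0.26, limma). Of the 25 peaks 21 were kept in that setting, Tfrc among them.

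The rest were proteins of signalling, the synapse and division. Avpr1a, the V1a vasopressin receptor, had 6.19 to 7.20 in the middle arrays, against 5.70 to 6.23 in the early and 5.61 to 6.68 in the late arrays, and the low middle array was replicate 2 of 3 DIV. Pkia, an inhibitor of protein kinase A, had 9.81 to 10.51 in the middle arrays, against 8.62 to 10.11 in the early and 9.38 to 9.93 in the late arrays, with replicate 1 above replicate 2 at each time. Rims3, a RIM family protein of the presynaptic active zone, had 8.28 to 9.08 in the middle arrays, against 7.97 to 8.42 in the early and 7.88 to 8.35 in the late arrays, and only its 3 DIV arrays stood above all others. Lrrn3, a membrane protein with leucine-rich repeats, had 9.63 to 10.34 in the middle arrays, against 9.16 to 10.00 in the early and 9.20 to 9.89 in the late arrays, and replicate 1 was again above replicate 2 at each time. Kif18a, a kinesin that aligns chromosomes in mitosis, had 7.91 to 8.94 in the middle arrays, against 7.19 to 7.81 in the early and 6.99 to 8.12 in the late arrays. The middle differences were 0.86 (Avpr1a), 0.62 (Pkia), 0.52 (Rims3), 0.50 (Lrrn3) and 0.92 (Kif18a), with larger adjusted p-values on the 2 sides of 0.037 for Kif18a, 0.034 for Pkia, 0.034 for Lrrn3, 0.041 for Rims3 and 0.047 for Avpr1a. Of 23 measured mitosis genes none passed on either side, and their summed level spanned 7.15 to 8.22 in the middle arrays, against 7.21 to 8.18 in the early and 7.62 to 7.84 in the late arrays.

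**Figure D2:**
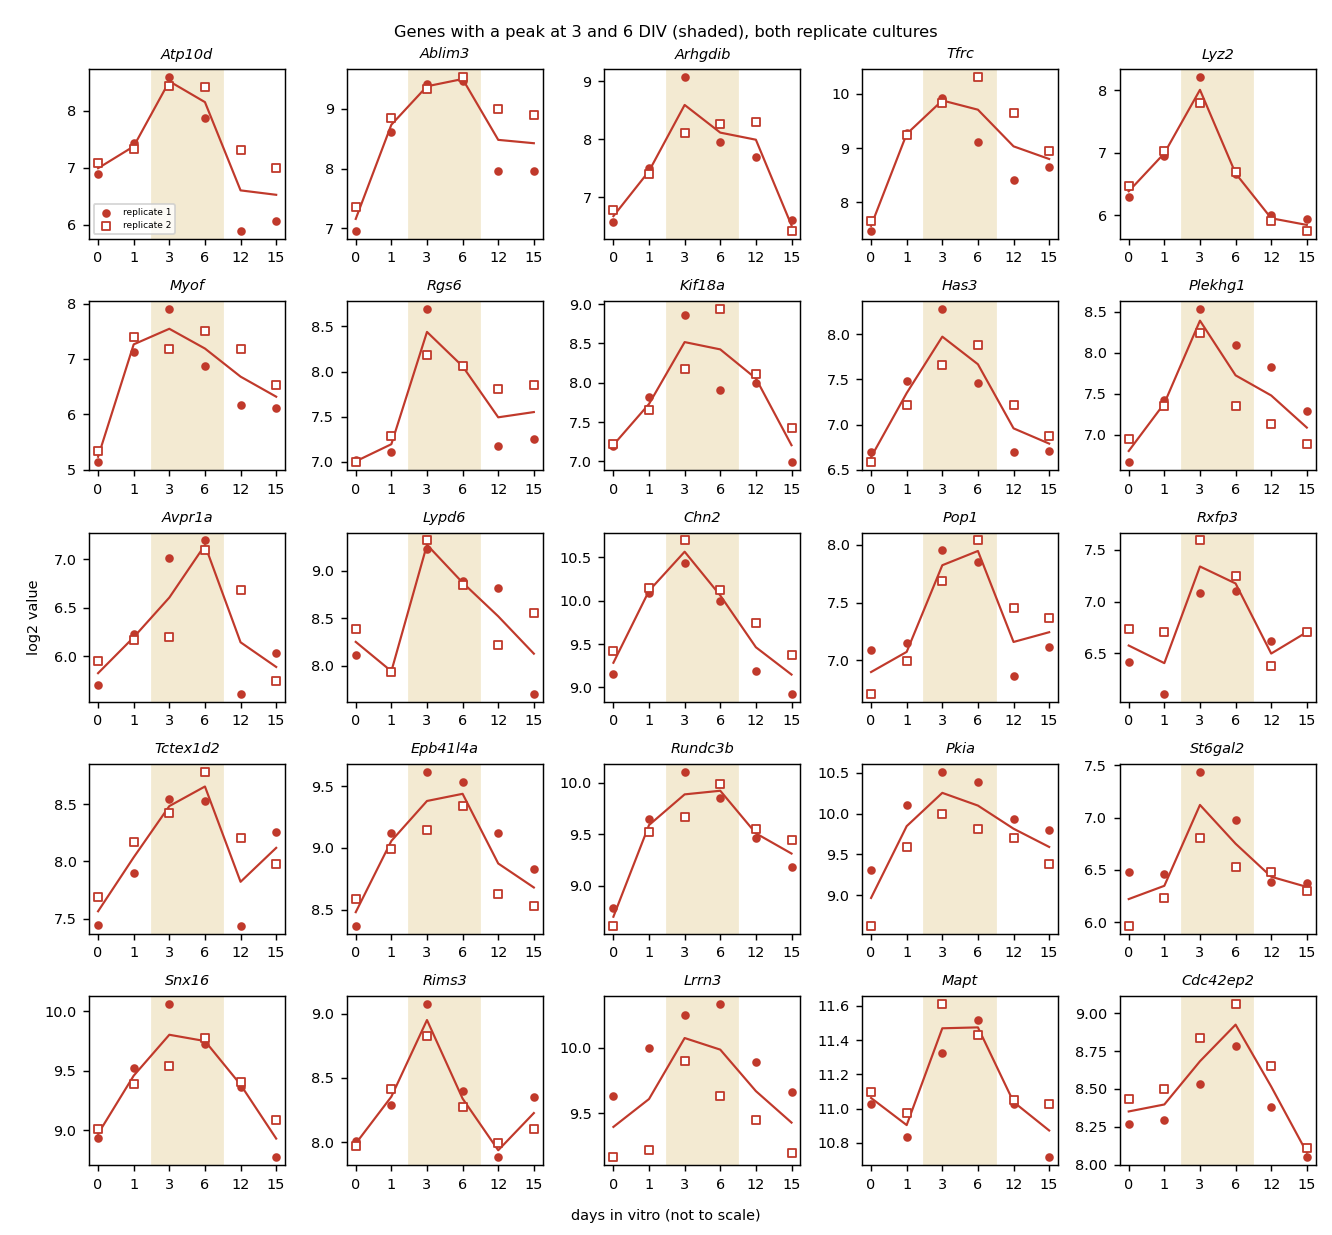
Log2 value against days in vitro (spacing not to scale) for the 25 peaks, with replicate 1 as filled circles, replicate 2 as open squares, the line through their mean and 3 and 6 DIV shaded. The mean is highest at 3 DIV in 17 panels and at 6 DIV in 8, and Lyz2 is back near its 1 DIV level by 6 DIV.

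How far the early level lay below the peak depended on the time taken as early. The 25 peaks stood above 0 DIV by a median of 1.03 and above 1 DIV by a median of 0.53, which ranged over 0.10 (Myof) to 1.13 (Lypd6). On the late side the median was 0.69 against 12 DIV and 0.85 against 15 DIV. All 4 middle arrays were above both 0 DIV arrays in 25 of the 25, above both 1 DIV arrays in 15, above both 12 DIV arrays in 16 and above both 15 DIV arrays in 23. Peaks were chosen by their means over these same arrays, so high counts follow in part from that choice. The counts were not made for all genes. With both 0 DIV arrays left out, so that 1 DIV alone stood for the early side, 0 genes were called a peak by limma, and 78 stood above both sides at an unadjusted p under 0.05, against 176 with all arrays. With both 3 DIV arrays left out the count was also 0 (81 at an unadjusted p under 0.05), and with both 6 DIV arrays left out it was 14, of which 7 were among the 25. Without replicate 1 of 3 DIV alone 3 peaks were called, Ablim3, Arhgdib and Rxfp3, and without replicate 2 of 12 DIV 70 were called, 23 of the 25 among them. Just inside the threshold stood Avpr1a (larger adjusted p = 0.0469) and Rundc3b (0.0490), and just outside it Kitl (0.0504) and Mmp24 (0.0514).

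The 11 dips had middle differences of -1.63 to -0.67. Of these, 9 were lowest at 3 DIV, and Tac2 and Cd34 were lowest at 1 DIV. In none did 6 and 3 DIV differ past the threshold. Necab3, a calcium-binding protein with EF hands, had 7.32 and 7.28 (3 DIV) and 7.28 and 7.35 (6 DIV) in the middle arrays, against 8.53 and 8.52 (0 DIV), 7.97 and 8.17 (1 DIV), 8.28 and 8.22 (12 DIV) and 8.32 and 8.86 (15 DIV). The 4 middle arrays were nearly equal, averaging 7.31 ± 0.03, against 8.30 ± 0.28 in the early and 8.42 ± 0.30 in the late arrays (SD, n = 4 arrays each), with no overlap. Its difference was -0.99 against the early arrays (SE 0.14) and -1.11 against the late arrays (SE 0.14), with a larger adjusted p of 0.0014, the smallest of the 36 peaks and dips, and 0.02 in the middle contrast (limma). It was called in all 12 fits that left out 1 array and in each other setting except the one without both 0 DIV arrays (larger adjusted p = 0.058).

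Slc7a10, the transporter Asc-1 for glycine and D-serine, had 7.23 and 6.86 (3 DIV) and 7.34 and 7.06 (6 DIV) in the middle arrays, against 8.34 and 8.37 (0 DIV), 7.49 and 7.77 (1 DIV), 8.19 and 7.64 (12 DIV) and 7.99 and 8.23 (15 DIV). The nearest others were 1 DIV replicate 1 and 12 DIV replicate 2. Ttyh2, a membrane protein of the tweety family, had 7.19 and 7.37 (3 DIV) and 7.85 and 7.58 (6 DIV) in the middle arrays, against 8.65 and 9.12 (0 DIV), 7.94 and 8.30 (1 DIV), 8.28 and 8.09 (12 DIV) and 7.92 and 8.53 (15 DIV). Its 6 DIV arrays already stood above those of 3 DIV, and replicate 1 of 6 DIV came close to the lowest of the others. Cyp2d22, a cytochrome P450, had 6.15 and 6.20 (3 DIV) and 6.30 and 6.38 (6 DIV) in the middle arrays, against 7.48 and 7.45 (0 DIV), 6.56 and 6.47 (1 DIV), 7.50 and 6.88 (12 DIV) and 8.11 and 7.02 (15 DIV). The middle arrays lay just under 1 DIV and replicate 1 of the late cultures was above replicate 2. The differences were -0.87 against the early arrays (SE 0.17) and -0.89 against the late arrays (SE 0.17) for Slc7a10, -1.0 against the early arrays (SE 0.17) and -0.71 against the late arrays (SE 0.17) for Ttyh2 and -0.73 against the early arrays (SE 0.20) and -1.12 against the late arrays (SE 0.20) for Cyp2d22. Larger adjusted p-values were 0.007, 0.02 and 0.04, and the middle contrast gave 0.042, 0.049 and 0.054, in this order of genes. With 1 array left out, Slc7a10 was called in 12 of 12 fits, Ttyh2 in 7 and Cyp2d22 in 5.

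The other 7 dips overlapped with the early or late arrays and are named after their values were seen. Tac2, the precursor of the neuropeptide neurokinin B, had 6.52 and 5.63 (3 DIV) and 6.73 and 6.50 (6 DIV) in the middle arrays, against 10.13 and 10.73 (0 DIV), 6.14 and 5.83 (1 DIV), 7.45 and 7.57 (12 DIV) and 7.67 and 8.28 (15 DIV). It was far higher at 0 DIV than at any later time, was as low at 1 DIV as in the middle and was partly back at 12 and 15 DIV. Its difference was -1.86 against the early arrays (SE 0.23) and -1.40 against the late arrays (SE 0.23), and its call held in all 12 fits that left out 1 array. Mmp9, a secreted metalloproteinase, had 4.97 and 5.38 (3 DIV) and 5.81 and 5.80 (6 DIV) in the middle arrays, against 6.96 and 7.02 (0 DIV), 5.65 and 5.45 (1 DIV), 6.38 and 6.51 (12 DIV) and 6.38 and 6.38 (15 DIV). It too was already low at 1 DIV, where the arrays lay within the middle range. Its difference was -0.78 against the early arrays (SE 0.14) and -0.92 against the late arrays (SE 0.14), and the call also held in all 12 fits. Tmem163, a zinc transporter of vesicles, had 7.69 and 7.31 (3 DIV) and 8.35 and 8.52 (6 DIV) in the middle arrays, against 8.68 and 9.12 (0 DIV), 8.59 and 8.11 (1 DIV), 9.70 and 9.48 (12 DIV) and 9.93 and 9.36 (15 DIV). The dip was at 3 DIV, since the 6 DIV arrays reached the level of 1 DIV. With all probesets of a gene the middle difference of Tmem163 was -0.63 and its call was lost (larger adjusted p = 0.27, limma). Of the 11 dips 9 were kept in that setting.

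Pcbd1, an enzyme that regenerates the cofactor tetrahydrobiopterin, had 5.94 and 5.50 (3 DIV) and 6.79 and 5.44 (6 DIV) in the middle arrays, against 6.95 and 6.90 (0 DIV), 6.98 and 6.43 (1 DIV), 7.81 and 6.85 (12 DIV) and 8.42 and 6.69 (15 DIV). The 2 cultures differed widely at 6, 12 and 15 DIV, replicate 1 being higher at each, and both had a dip. Cd34, a surface protein of vessel and blood-forming cells, had 6.00 to 6.37 in the middle arrays, against 6.08 to 7.48 in the early and 6.69 to 7.37 in the late arrays, and its 1 DIV arrays lay within the middle range. Rhbdl3, a rhomboid-like membrane protein, had 5.47 to 5.89 in the middle arrays, against 5.79 to 7.04 in the early and 5.54 to 6.78 in the late arrays, and replicate 2 of 1 DIV and of 12 DIV lay within the middle range. Itga4, the integrin alpha4 chain, had 7.34 to 7.60 in the middle arrays, against 7.80 to 8.56 in the early and 7.50 to 8.43 in the late arrays, and 12 DIV replicate 1 was the 1 array of the other 8 within the middle range. Middle differences were -1.21 for Pcbd1, -1.15 for Tmem163, -0.70 for Cd34, -0.68 for Rhbdl3 and -0.67 for Itga4. Tac2, Mmp9, Tmem163 and Pcbd1 passed the middle contrast (adjusted p = 0.028, 0.029, 0.029 and 0.049), and Cd34 (0.054), Rhbdl3 (0.082) and Itga4 (0.072) did not.

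**Figure D3:**
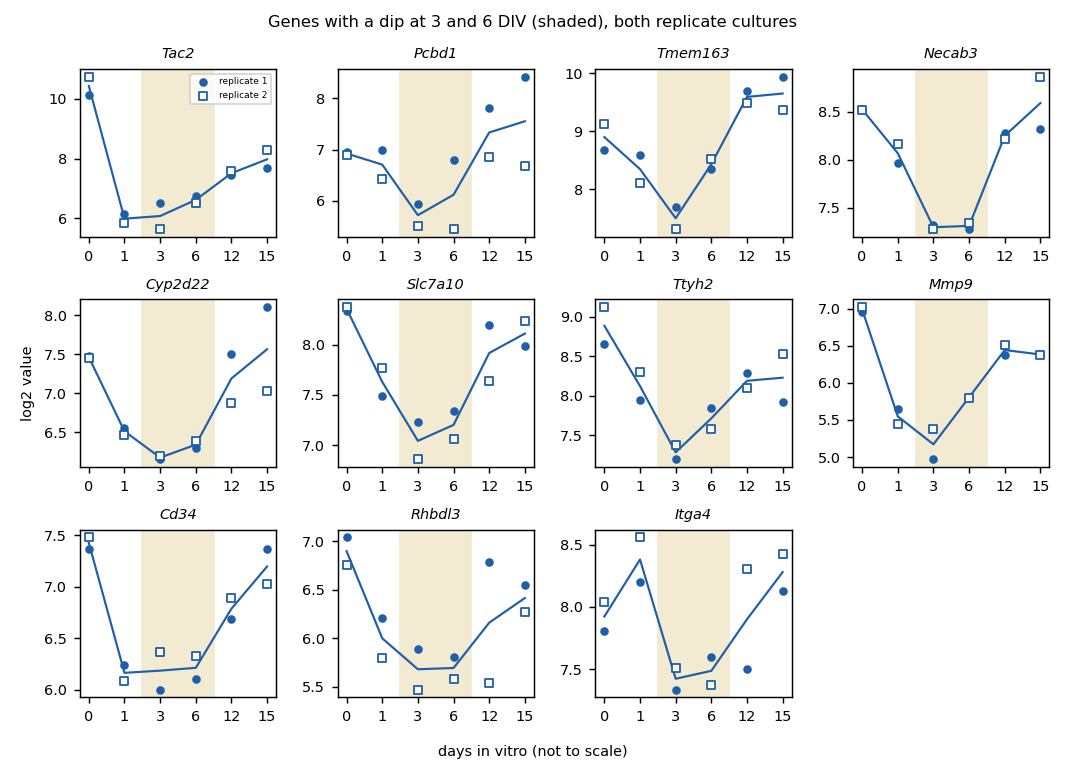
Log2 value against days in vitro (spacing not to scale) for the 11 dips, drawn as for the peaks with 3 and 6 DIV shaded. Necab3 holds 7.28 to 7.35 in all 4 shaded points, while Tac2, Mmp9 and Cd34 are already low at 1 DIV.

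Set against single times, the 11 dips stood below 0 DIV by a median difference of -1.22, below 12 DIV by -0.93 and below 15 DIV by -1.0, but below 1 DIV by -0.38 only. In 9 of the 11 the middle mean was below the 1 DIV mean, the exceptions being Tac2 (0.36 above) and Cd34 (0.04 above), and in 5 all middle arrays were below both 1 DIV arrays: Necab3, Slc7a10, Ttyh2, Cyp2d22 and Itga4. As for the peaks, such counts follow in part from how dips were chosen, and were not made for all genes. Without both 0 DIV arrays 2 genes were called a dip and neither was among the 11, and without both 3 DIV arrays Necab3 alone was called. Just inside the threshold stood Tmem163 (larger adjusted p = 0.0400) and Rhbdl3 (0.0485), and just outside it Kcnq3 (0.0516) and Zfp687 (0.0526).

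Promoter sequence of RefSeq (assembly GRCm38.p6, 250 bases before to 50 after the start of the gene) was matched for 16 of the 25 peaks, 8 of the 11 dips and 15765 of all genes. The 250 bases before the start are printed for the dip and the peak with the largest difference among matched genes whose arrays did not overlap. They are Necab3 on the minus strand of chr2:154558855-154559104 and Rgs6 on the plus strand of chr12:82617249-82617498, both written 5′ to 3′ along the gene. Capitals mark the letters CCAAT, searched on both strands.
Necab3: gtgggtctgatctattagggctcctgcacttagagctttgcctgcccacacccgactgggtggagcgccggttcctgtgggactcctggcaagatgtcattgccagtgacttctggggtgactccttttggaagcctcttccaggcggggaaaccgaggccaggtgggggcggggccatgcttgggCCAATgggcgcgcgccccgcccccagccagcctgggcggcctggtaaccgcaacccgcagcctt
Rgs6: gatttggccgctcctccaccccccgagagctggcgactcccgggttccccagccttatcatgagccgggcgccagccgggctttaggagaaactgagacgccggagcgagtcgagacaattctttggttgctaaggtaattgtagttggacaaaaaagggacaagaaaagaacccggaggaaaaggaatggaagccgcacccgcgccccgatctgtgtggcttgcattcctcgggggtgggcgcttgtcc
The Necab3 promoter held CCAAT once and was 65.6% G and C, and that of Rgs6 held none of the motifs searched and was 59.2% G and C.

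The 7 motifs were counted in these windows as a description, on both strands. CCAAT stood in 7 of the 16 peaks (43.8%), 4 of the 8 dips (50%) and 38.4% of all promoters. The TATA box, TATAAA, stood in 12.5% of the peaks, 12.5% of the dips and 12.2% of all. The cAMP response element TGACGTCA was found in Kif18a alone and in 2.45% of all, and the E-box CACGTG in Tctex1d2 alone and in 8.39% of all. The antioxidant response element TGACNNNGC was found in Lyz2 and Cd34 and in 13.7% of all. The CArG box, bound by serum response factor, was found in Tmem163 and in 1.47% of all, and the sterol response element in none of them and in 1.17% of all. None of these shares was tested.

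The 49 genes past the middle contrast that neither peaked nor dipped fell into 6 shapes, set by the sides on which they passed. Apart from Sst, Grin2a, Eomes, Slc17a7, Dcn, Klf9 and Ypel2, which their lists named, they are named after their values were seen. On the higher side 9 had passed against the early arrays only. They included Sst, the neuropeptide somatostatin of inhibitory neurons, Cdh9, a cadherin, the kinase Pak6 and the adhesion molecule Cadm2. Sst had 12.18 and 12.14 (3 DIV) and 12.22 and 12.22 (6 DIV) in the middle arrays, against 9.67 and 9.47 (0 DIV), 11.93 and 11.85 (1 DIV), 11.85 and 12.09 (12 DIV) and 12.30 and 12.13 (15 DIV). The 0 DIV arrays alone stood apart, and Sst differed by 1.46 from the early arrays but by 0.10 from the late ones. Cdh9 had 7.50 to 8.73 in the middle arrays, against 5.41 to 5.79 in the early and 7.75 to 8.69 in the late arrays, with no early array near the rest, and Pak6 had 9.72 to 10.34 in the middle arrays, against 7.40 to 9.23 in the early and 9.28 to 10.39 in the late arrays. The others were Popdc3, Rgs10, Gng4, Gpr12 and Cpne5, with middle differences of 0.77 (Cpne5) to 0.95 (Popdc3).

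Another 7 higher genes had passed against the late arrays only, with levels that were lower at 12 and 15 DIV. St8sia2, which adds the polysialic acid of young neurons to NCAM, had 10.34 and 10.58 (3 DIV) and 10.24 and 9.76 (6 DIV) in the middle arrays, against 10.41 and 10.31 (0 DIV), 10.23 and 10.34 (1 DIV), 8.93 and 8.41 (12 DIV) and 7.50 and 8.12 (15 DIV). Its 12 and 15 DIV arrays all lay below its 8 earlier ones, and it differed by 1.99 from the late but by -0.09 from the early arrays. Rnf152, a ubiquitin ligase of lysosomes, had 8.71 to 9.70 in the middle arrays, against 9.01 to 9.18 in the early and 6.47 to 7.83 in the late arrays. The others were Zfp704, Cdc42ep3, Carhsp1, Trim67 and 4931428F04Rik, and Trim67, a TRIM protein of neurons, was the 1 of the 7 whose middle arrays all lay above the others. The last 2 higher genes, Grin2a, an NMDA receptor subunit, and Nbl1, an inhibitor of bone morphogenetic proteins, were above the early arrays in the middle and higher still in the late arrays. From 3 to 6 DIV Grin2a changed by only 0.12. Grin2a had 9.38 and 9.62 (3 DIV) and 9.35 and 9.89 (6 DIV) in the middle arrays, against 6.86 and 7.43 (0 DIV), 7.19 and 7.98 (1 DIV), 9.58 and 10.21 (12 DIV) and 10.19 and 10.66 (15 DIV), and differed by 2.20 from the early and by -0.60 from the late arrays.

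Of the lower genes, 18 had passed against the late arrays only, with 12 and 15 DIV above the middle. They included Rasgrf1, a Ras exchange factor (-3.25 from late), the cholecystokinin receptor Cckbr (-2.04), the potassium channel Kcnh3 (-1.85) and the muscarinic receptor Chrm1 (-2.02). Klf9, a transcription factor induced by thyroid and steroid hormones, had 7.39 to 8.20 in the middle arrays, against 7.54 to 8.16 in the early and 8.89 to 9.49 in the late arrays, and Ypel2, of the yippee-like family, had 6.93 to 7.85 in the middle arrays, against 7.57 to 8.55 in the early and 8.38 to 9.28 in the late arrays. Ypel2 was below the early arrays as well, by -0.57, short of the threshold (adjusted p = 0.075). The remaining 12 were Phospho1, Tmem255b, Cabp7, Scrg1, Vegfd, Chrm5, Nr1d2, Tmem63c, Nrsn2, Fgfr1op2, Rreb1 and Plec, with differences from late of -2.55 (Tmem255b) to -1.19 (Fgfr1op2).

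Another 7 lower genes had moved in opposite directions on the 2 sides. Eomes, a transcription factor of intermediate progenitors, was the 1 that fell through the series, with 7.16 and 7.52 (3 DIV) and 5.27 and 5.72 (6 DIV) in the middle arrays, against 10.57 and 10.81 (0 DIV), 9.86 and 9.97 (1 DIV), 5.97 and 5.24 (12 DIV) and 5.10 and 5.18 (15 DIV). Its 3 DIV arrays stood in between and its 6 DIV arrays at the late level, so that its middle difference of -1.42 went with a high early level. The other 6 were already above the early arrays in the middle, by 0.50 (Cpne6) to 1.12 (Cntnap1), and were higher still in the late arrays. They were Slc17a7, the vesicular glutamate transporter VGLUT1, Dcn, the matrix proteoglycan decorin, Cntnap1, Cpne6, Rasgrp1 and Snhg11. Slc17a7 had 8.91 and 8.92 (3 DIV) and 10.13 and 10.54 (6 DIV) in the middle arrays, against 9.04 and 9.01 (0 DIV), 8.62 and 8.88 (1 DIV), 11.35 and 11.76 (12 DIV) and 11.79 and 12.18 (15 DIV). The 3 DIV arrays equalled the early ones and the step came from 6 DIV on. Dcn had 6.75 to 8.44 in the middle arrays, against 6.43 to 7.62 in the early and 9.78 to 10.02 in the late arrays. The last 6 lower genes had passed against the early arrays only. They included Ltbp1, which stores TGF-beta in the matrix (-1.62 from early), the complement inhibitor Serping1 (-1.79) and the transcription factor Dach1 (-2.09). The rest were the chromatin remodeller Chd7 (-1.45), E130114P18Rik (-1.83) and E330013P04Rik (-1.82).

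**Figure D4:**
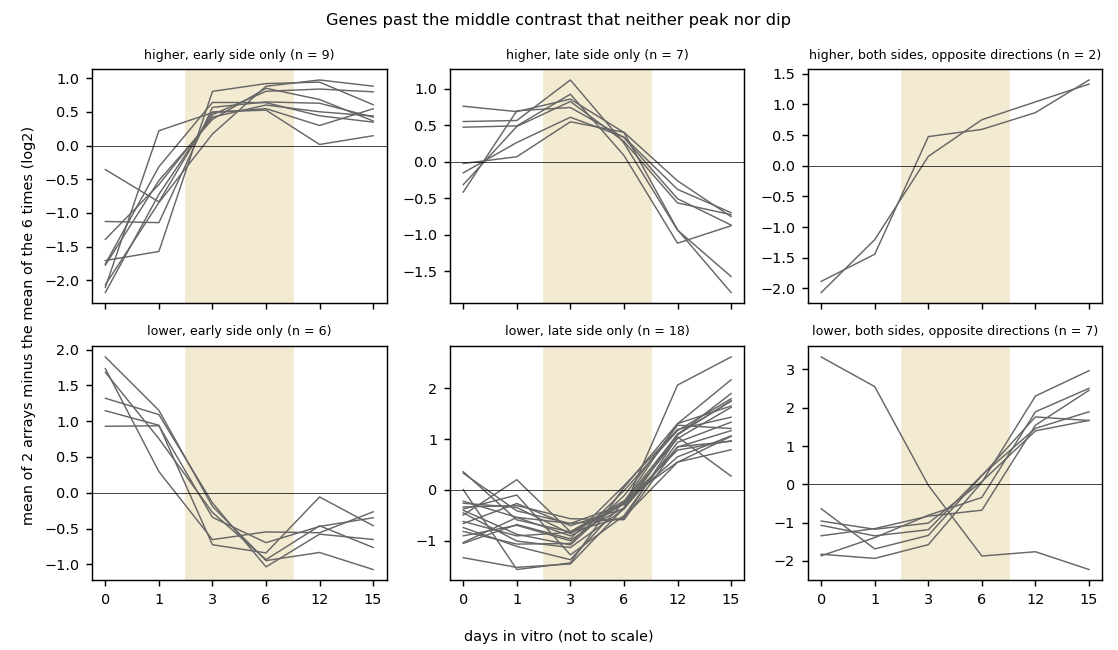
Mean of the 2 arrays at each time minus the mean of the 6 times (log2), against days in vitro (spacing not to scale, 3 and 6 DIV shaded), for the 49 genes past the middle contrast that neither peak nor dip, 1 line a gene. The panels hold 9, 7 and 2 higher and 6, 18 and 7 lower genes, and most lines run level on one side of the shaded times and step on the other.

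Genes that the study named in its account of the arrays were not set apart at 3 and 6 DIV. Top2b, a topoisomerase, Nasp, a histone chaperone, Snap25, a SNARE protein of transmitter release, Ncam2, an adhesion molecule, and the kinase Nek7 had middle differences of 0.21, 0.19, -0.13, 0.42 and -0.10, in this order, with adjusted p of 0.33 (Ncam2) to 0.82 (Nek7). Nek7 had 8.61 and 7.84 (3 DIV) and 9.02 and 8.69 (6 DIV) in the middle arrays, against 7.78 and 7.57 (0 DIV), 7.81 and 7.62 (1 DIV), 9.44 and 9.58 (12 DIV) and 9.65 and 9.66 (15 DIV). It rose along the series, 0.85 above the early and -1.04 from the late arrays, and both of these differences passed (adjusted p = 0.0066 and 0.0021, limma). Snap25 had the same shape, at 0.76 and -1.03. Ncam2 had risen by 6 DIV, at 1.23 and -0.40, and only the first of these passed.

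The gene lists that follow were chosen with earlier results of these data known, and are described by counts and medians, with no test of a list. Members that did not pass the middle contrast, other than Mapt, are named after their values were seen. Over all 20358 genes the median difference was -0.00 from the early and -0.03 from the late arrays. The share of all genes that passed, the background of each list's counts, was 7.94% higher and 2.86% lower than early, and 5.16% higher and 7.44% lower than late. Of 29 genes of growth cones and neurite outgrowth, the machinery of the extending tip, 15 (51.7%) had a middle mean above both sides, where 19.6% of all genes did, and 0 had one below both, where 24.3% did. The shifts were small: the list median was 0.10 against early and 0.19 against late, no member was a peak and none passed the middle contrast. Against early 1 was higher and 3 lower, and against late 7 were higher and 2 lower. Chl1, an adhesion molecule of the L1 family, was the 1 member whose arrays did not overlap, averaging 10.95 in the middle, 10.59 in the early and 10.20 in the late arrays. Gap43, a growth cone protein, averaged 12.03, 11.89 and 11.94 in that order, and passed on neither side. Dcx, doublecortin of migrating neurons, averaged 11.36, 11.50 and 9.89, and Sox11, a transcription factor of young neurons, 11.63, 12.18 and 10.05. Dcx was level and then dropped, and Sox11 fell through the series, so that neither was a peak. Summed over the list, the level spanned 10.97 to 11.19 in the middle arrays, against 10.97 to 11.06 in the early and 10.59 to 10.85 in the late arrays.

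Other lists of neurite growth held 1 peak in all, Mapt, which was called in 3 of 12 fits that left out 1 array and in 5 of 14 other settings. Of 27 axon guidance receptors 4 were higher and 4 lower than early (7.94% and 2.86% of all genes), and 10 higher and 1 lower than late (5.16% and 7.44% of all genes), with list medians of -0.04 and 0.24. Epha7, an ephrin receptor, averaged 9.16 in the middle, 8.69 in the early and 8.45 in the late arrays, with no overlap, and the netrin receptor Unc5c averaged 9.59, 8.04 and 9.74. Epha7 was thus high in the middle but passed against late alone, and Unc5c stayed high after its rise. Of 30 tubulins and microtubule-associated proteins 10 stood above both sides. Mapt was the 1 peak among them, while Map1a, a microtubule protein of dendrites, averaged 9.88, 8.54 and 10.74 and Tuba4a, an alpha tubulin, 9.03, 7.63 and 11.32, both rising along the series. Of 21 transport kinesins 8 stood above both sides and 0 below both, 6 were higher than early and 3 higher and 3 lower than late.

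The lists of the synapse stepped through the middle times. Of 20 genes of synaptic vesicles and release 17 were higher than early (7.94% of all genes) and 12 lower than late (7.44% of all genes), with medians of 0.92 and -0.54, and of 23 genes of the postsynaptic density 15 were higher than early and 11 lower than late, with medians of 0.58 and -0.45. None of these genes peaked or dipped. The summed levels did not overlap between the stages, with synaptic vesicle genes at 9.97 to 10.39 in the middle arrays, against 9.02 to 9.48 in the early and 10.65 to 11.03 in the late arrays. Of 18 astrocyte markers 9 were higher than early and 13 lower than late, but their summed level overlapped with both sides, as given above. Of 13 markers of the oligodendrocyte lineage 5 were higher than early, and 9 lower and 1 higher than late, and their summed level spanned 6.93 to 8.12 in the middle arrays, against 6.58 to 7.01 in the early and 8.12 to 8.72 in the late arrays, so that they overlapped with the early arrays, and the highest middle array lay just below the lowest late one.

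Endothelial and mural cell markers were the list with the most members below both sides. Of 15 measured, 12 (80%) had a middle mean below both the early and the late mean, where 24.3% of all genes did. Against early 6 were lower (2.86% of all genes) and 0 higher (median -0.55), but against late none passed (median -0.14) and no member was a dip. Cdh5, the cadherin of endothelium, averaged 5.53 in the middle, 6.42 in the early and 5.57 in the late arrays, and Rgs5, of pericytes, 5.59, 6.77 and 5.73. Both means were lower in the middle than in the early arrays and close to those of the late arrays. A mean over 0 and 1 DIV does not show at which of these times the levels fell. Kdr, a VEGF receptor, averaged 6.30, 6.95 and 7.0, and did not pass on either side. The summed level of the list was 5.76 to 6.01 in the middle arrays, against 5.95 to 7.08 in the early and 5.93 to 6.29 in the late arrays, and its part in the dip of Cd34 was not tested.

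Of 24 smooth muscle and actomyosin genes none was higher than early, 1 was lower, and 6 were higher (5.16% of all genes) and none lower than late. The list medians were 0.01 against early and 0.11 against late. By their means 8 (33.3%) stood above both sides and 5 (20.8%) below both, where 19.6% and 24.3% of all genes did. Acta2, smooth muscle actin, averaged 7.78 in the middle, 6.97 in the early and 6.44 in the late arrays, and Tagln, transgelin, 7.56, 6.96 and 6.84. Both were highest in the middle by their means, but passed against late alone. Of 12 heat shock genes 6 stood above both sides and none below, with medians of 0.16 and 0.02, and the 1 that passed a side, Hspa8, was lower than early. Among 17 progenitor genes 1 was higher and 5 lower than early, and 4 higher and 1 lower than late. Vim, the intermediate filament vimentin of progenitors and glia, was the 1 whose arrays did not overlap, averaging 11.83, 11.57 and 11.06, and passed against late only. Across all 32 lists, 631 genes were measured of 659 entries, and they held 2 of the 25 peaks, Lyz2 and Mapt, and 0 of the 11 dips.

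**Figure D5:**
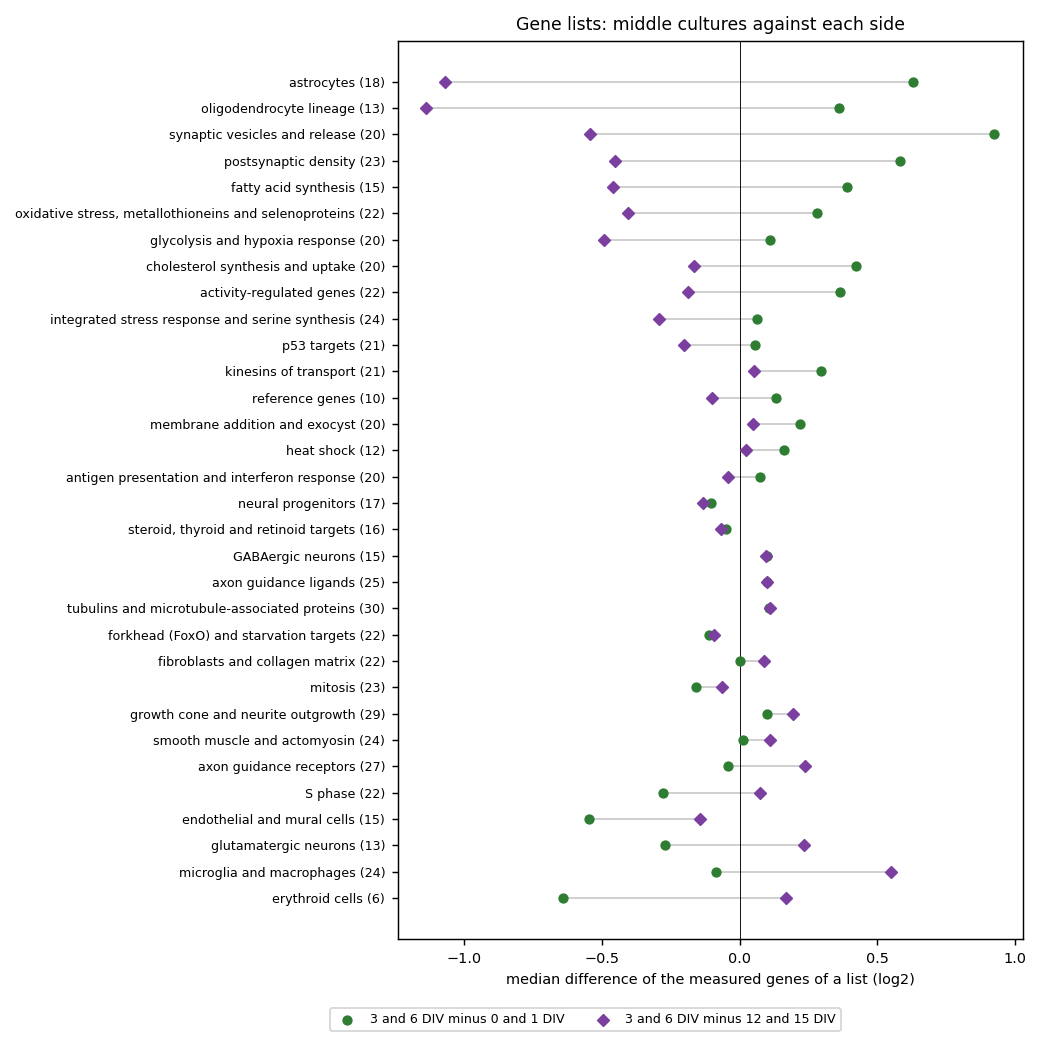
Median log2 difference of the measured genes of each of 32 lists (number measured in brackets), middle minus early as green circles and middle minus late as purple diamonds. Synapse, astrocyte and oligodendrocyte lists lie right of 0 against early and left of 0 against late, endothelial genes lie left of 0 on both (-0.55 and -0.14) and growth cone genes slightly right of 0 on both (0.10 and 0.19).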

How the data were processed

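Total RNA of mouse hippocampal cultures (12 arrays, 6 times, 2 replicates) was amplified, labelled and hybridised to Affymetrix Mouse Gene 1.0 ST arrays. The labels and the methods name different labelling kits. The deposited values are log2 values per probeset, which the authors made by RMA (rma of the oligo package, version not given in the sources used here), that is background correction, normalization between arrays and summary of probes. The number of arrays limits the precision.

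From these values, 212138 of 241576 probesets had 1 gene symbol in the platform annotation and were used, 4672 had several and 24766 none, and 2743 symbols were updated. As in the methods, the more variable 50% of a gene's probesets were combined by median polish (a median of 4 of 8 probesets; 3461 genes rested on 1), which gave 20358 genes. The probesets come with no genome build, so no positions other than those of RefSeq promoters are printed.

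Each gene was fitted by limma (version 3.58.1, in R 4.3.3) with a term for each time and one for the culture, that is the replicate as a block. Residual degrees of freedom were 5 and prior ones 5.64. All tests were two-sided, with Benjamini-Hochberg adjustment across genes; for a peak or dip the larger of the adjusted p-values on the early and the late side is given. The block rests on the labels' replicate numbers and on the date-of-experiment term in the methods. Replicate differences correlated across genes between times at 0.11 to 0.46 (median 0.30, 15 pairs of times). The block removes a constant difference between the cultures. Where cultures shared no other source, p-values rest on the scatter left after the terms for time and culture, in these 2 cultures only. Scripts were tested on simulated data with known peaks and dips.

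The comparison, the peak and dip rules and the 32 gene lists were chosen with earlier results of these data known; 1 further list is not reported here. Named genes were up to 12 peaks and up to 12 dips with the largest difference whose middle arrays did not overlap the others, list members past the middle contrast, and 5 genes the study names. Other list members whose values are given fall outside this rule and were picked after their values were seen. Alternatives changed the block, the grouping, the probesets, the gene summary, the array scaling, a filter on low signal and the variance model, or left out each array or time. Promoters come from RefSeq (GRCm38.p6). Figures were drawn with Python 3.11.15, matplotlib 3.10.9 and pandas 2.3.3.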

Additional observations from a re-analysis of the deposited data

Results flagged for a closer look

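In 4 groups of 4 arrays, 1 array stood far from the other 3 by Dixon's test; 108 groups were tested, and chance alone marks about 1 in 20. Mapt was 10.72 in 15 DIV replicate 1, against 11.03 to 11.05 in the other late arrays, which is on the far side from its middle level. Mmp9 was 6.51 in 12 DIV replicate 2, against 6.38 in each of the other late arrays, a gap that is small on the log2 scale. Necab3 was 8.86 in 15 DIV replicate 2, against 8.22 to 8.32 in the other late arrays, and its dip was called with that array left out. Pcbd1 was 6.43 in 1 DIV replicate 2, against 6.90 to 6.98 in the other early arrays.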

How the results depend on the processing

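Of the counts of genes called, 24 higher, 38 lower, 25 peaks and 11 dips, most moved by more than 1.5 times with the processing, and the order used here is higher, lower, peaks, dips. Without the replicate block that pairs the arrays by culture the counts were 1, 4, 8 and 6, all among the genes called with it. With the middle arrays set against the other 8 as 2 groups, 0 were higher and 0 lower in limma (389 and 318 at an unadjusted p under 0.05). In that fit the early and late arrays form 1 group, so that the change between them adds to the scatter. With the times pooled within each stage, 9 peaks and 3 dips were called. All probesets of a gene gave 121, 97, 54 and 22, the mean of probesets 70 and 69 in the middle contrast, quantile normalization 62, 64 and, for dips, 20, and centring each array changed none by 1.5 times. Leaving out the lowest-signal genes, so that 13572 were tested, gave 166, 133, 55 and 22, and an intensity trend with robust variances 235, 124, 56 and 17. Without both 0 DIV arrays the counts were 41, 132, 0 and 2, without 1 DIV 85, 165 and, for dips, 18, without 3 DIV 0, 1, 0 and 1 (1036 higher at an unadjusted p under 0.05), without 6 DIV 14 peaks and 5 dips, without 12 DIV 402, 162, 51 and 23, and without 15 DIV 159, 60, 3 and 6. The causes were not tested.

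Leaving out 1 array gave 0 to 288 higher, 0 to 249 lower, 3 to 70 peaks and 5 to 57 dips. Peaks and dips were 13 and 9 without 0 DIV replicate 1, 15 and 5 without replicate 2, 10 and 5 without 1 DIV replicate 1, 9 and 5 without replicate 2, 3 and 6 without 3 DIV replicate 1, 45 and 44 without replicate 2, 14 and 7 without 6 DIV replicate 1, 4 and 5 without replicate 2, 25 and 17 without 12 DIV replicate 1, 70 and 57 without replicate 2, 9 and 11 without 15 DIV replicate 1, and 17 and 9 without replicate 2. Ablim3, Arhgdib, Mmp9, Necab3, Slc7a10 and Tac2 were called in all 12 of these fits, and the other 30 peaks and dips were each lost in some.

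For 48 named genes under 26 alternatives, the direction and call were kept in 690 values, the call was lost in 541 and gained in 1, and the direction turned in 13, none of them of a peak or dip. Avpr1a, Mmp9 and Rhbdl3 were not in the fit without the lowest-signal genes. Turned differences were, without both 3 DIV arrays, Nasp -0.047, Nek7 0.22, Slc17a7 0.0047, Snap25 0.071 and Top2b -0.068; without 6 DIV, Ncam2 -0.0053; without 12 DIV, Nek7 0.19 and Snap25 0.15; without 15 DIV, Nasp -0.028, Nek7 0.24, Snap25 0.18 and Top2b -0.015; and, over the fits that left out 1 array, Nek7 ran from -0.26 (without 3 DIV replicate 1) to 0.066 (without 3 DIV replicate 2).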
